A study of Homo sapiens with 6 samples.

Results

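The genes described here govern how pyruvate, the end product of glycolysis, enters mitochondria and is turned into acetyl-CoA. They are the mitochondrial pyruvate carrier genes MPC1 and MPC2, 3 genes of the pyruvate dehydrogenase complex (PDHA1, PDHB and DLAT), the 4 pyruvate dehydrogenase kinase genes PDK1 to PDK4, and the phosphatase gene PDP1. These 10 genes were chosen by symbol, and all 10 were found among the 60605 gene identifiers of the deposited table. Of them, 9 had enough counts to be tested and PDK4 did not.

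The RNA came from H69AR, a cell line of small cell lung cancer derived from NCI-H69 by selection in doxorubicin, and the question was through which pathway Supinoxin (RX-5902, a small molecule directed at the helicase DDX5) works in it. In 3 libraries, confluent cells had received 70 nM Supinoxin, and 3 libraries came from H69AR cells without the drug. All 6 libraries carry the genotype label WT and come from the same line, grown in RPMI-1640 with 20% fetal bovine serum. The sources used here do not give the length of treatment or any vehicle. Nor do they say whether replicates were separate cultures, so that p-values reflect the spread among these libraries, which may be technical.

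Pyruvate crosses the inner mitochondrial membrane through a carrier built of MPC1 and MPC2. In the matrix, pyruvate dehydrogenase, a tetramer of alpha (PDHA1) and beta (PDHB) subunits, decarboxylates it. The acetyl group passes to the lipoyl arms of DLAT, the core of the complex, and on to coenzyme A. Pyruvate dehydrogenase kinases phosphorylate the alpha subunit and switch the complex off, and the phosphatases PDP1 and PDP2 remove the phosphate and switch it on. The kinases are therefore a gate between respiration of pyruvate and its conversion to lactate, and PDK1 is a textbook target of the hypoxia-inducible factor HIF-1.

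Total counts per library ran from 30136963 to 39402804. Levels are given as CPM, the usual counts-per-million unit, after scaling by trimmed mean of M values (TMM), so that 1 CPM stood for 30.7 to 38.2 counts. Differences were tested with edgeR's quasi-likelihood test over 15947 genes with Benjamini-Hochberg adjustment and called at an adjusted p under 0.05. By that rule, 3732 genes (23.4%) were higher and 4018 (25.2%) lower with Supinoxin. The median log2 fold change of all genes was 0 with TMM and 0.14 when libraries were scaled by their totals alone. Of the fixed markers, ABCC1, the drug efflux pump gene known for its high level in this line, stood at 3524 ± 482 CPM in untreated and 10470 ± 318 CPM in Supinoxin libraries (SD, n = 3; edgeR adjusted p = 9.47e-05), and the neuroendocrine factor gene NEUROD1 was listed at 0 in all libraries. Of the 4 epithelial markers 1 was lower and 0 higher. It was EPCAM, a surface adhesion molecule, at 1.22 ± 0.196 CPM with and 10.3 ± 1.23 without Supinoxin, 8.46-fold lower (edgeR adjusted p = 1.89e-05). The keratin genes KRT8 and KRT18 did not pass, at 112 ± 5.01 and 32.3 ± 2.81 CPM with and 165 ± 53.1 and 36.7 ± 13.1 CPM without Supinoxin, and CDH1, which encodes E-cadherin, had 17 counts over all libraries. The 10 leukocyte, endothelial and fibroblast markers together summed to 1.92 to 3.67 CPM in untreated and 2.04 to 2.65 CPM in Supinoxin libraries. Of these 10 markers 1 was lower and 0 higher. The lower one was the leukocyte marker CD3E, with 1, 0 and 0 counts in the Supinoxin and 18, 12 and 12 in the untreated libraries (edgeR adjusted p = 0.00108). Summed neuroendocrine markers were at 27.4 to 33.1 CPM in untreated and 18.7 to 20.2 CPM in Supinoxin libraries, with 2 of 7 lower and 0 higher. Of the 6 non-neuroendocrine markers 4 were higher and 0 lower. The part of such marker differences in the results below was not tested.

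Among the 9 tested genes 3 were higher and 5 lower with Supinoxin, or 8 called against 48.6% of all genes tested. The kinase genes split: with TMM scaling PDK1 and PDK3 rose nearly as much as PDK2 fell. With an offset for length and GC content, described below, they rose less than PDK2 fell (log2 fold changes 0.58, 0.49 and -1.04). Both carrier genes fell, as did the alpha and beta subunit genes of pyruvate dehydrogenase, while the core gene DLAT did not pass. The phosphatase gene PDP1 rose a little. The median log2 fold change over the 9 genes was -0.35, beside 0 over all genes tested. In 8 of the 9 genes the libraries of the groups did not overlap, which held for 31.3% of all genes in the upward and 31.1% in the downward direction.

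**Figure D1:**
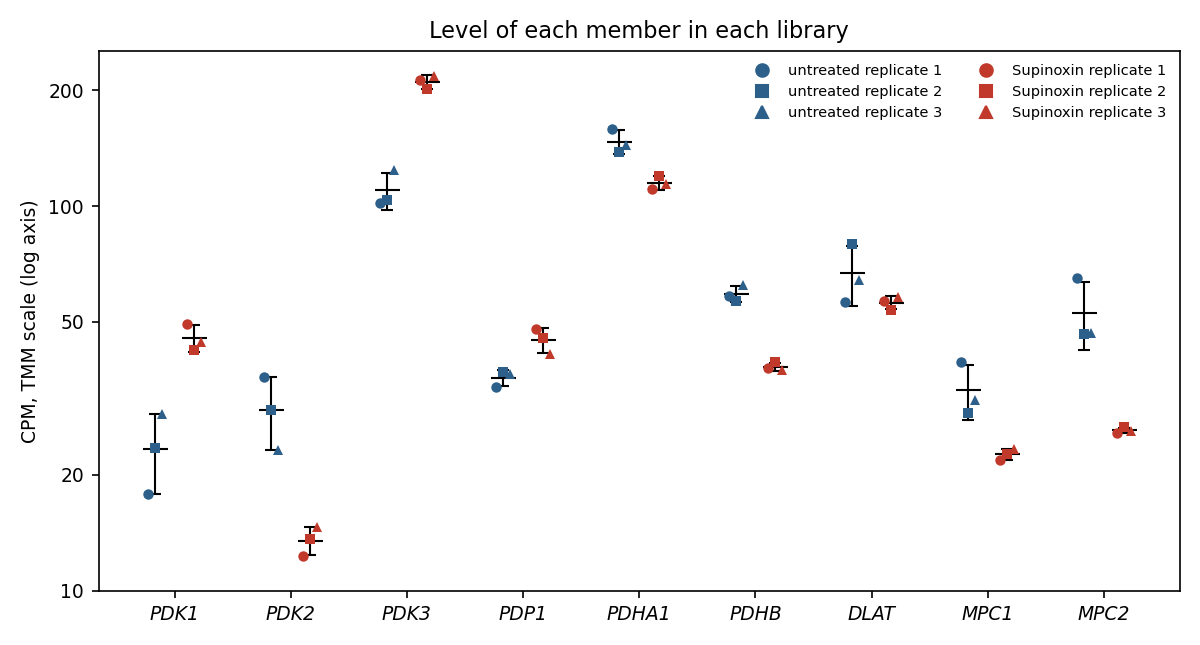
CPM on the TMM scale (log axis) of each tested gene in each library, blue for untreated and red for Supinoxin, with circles, squares and triangles for replicates 1, 2 and 3; dashes and bars are the mean and SD of 3 libraries. PDK1 and PDK3 lie higher and PDK2, MPC1 and MPC2 lower with Supinoxin, and DLAT is the gene whose groups overlap.

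PDK1 (ENSG00000152256, chromosome 2, 172555373 to 172608669, GRCh38) encodes the kinase isoform best known from hypoxic and tumour cells. It stood at 49.5, 42.3 and 44.4 CPM in Supinoxin replicates 1, 2 and 3 and at 17.8, 23.5 and 28.8 CPM in untreated replicates 1, 2 and 3. Every Supinoxin library lay above every untreated one. The mean rose 1.94-fold, from 23.4 ± 5.46 to 45.4 ± 3.73 CPM (SD, n = 3 each), or 0.96 on the log2 scale (SE 0.18, edgeR adjusted p = 0.00233). Untreated replicate 1 was the lowest library, and without it the log2 fold change was 0.81 (edgeR adjusted p = 0.000282; alternatives gave 6.7e-06 to 0.0132). The antisense transcript PDK1-AS1, whose exons cover 3% of the exonic bases of PDK1, was at 0.517 ± 0.0822 CPM with and 0.195 ± 0.0852 CPM without Supinoxin.

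PDK3 (ENSG00000067992, chromosome X, 24465244 to 24550466) encodes the isoform with the highest reported catalytic activity of the family. Its libraries held 213, 201 and 218 CPM with Supinoxin and 102, 104 and 124 CPM without it, again with no overlap. The mean rose 1.91-fold, from 110 ± 12.4 to 211 ± 8.60 CPM, or 0.94 on the log2 scale (SE 0.13, edgeR adjusted p = 0.000714). Among PDK1, PDK2 and PDK3, PDK3 was the most abundant per kilobase of exon in every library except untreated replicate 1, where PDK2 came first.

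PDK2 (ENSG00000005882, chromosome 17, 50094737 to 50112152) encodes the isoform found most widely across tissues. It went the other way, with 12.3, 13.6 and 14.6 CPM in the Supinoxin libraries and 36.0, 29.5 and 23.2 CPM in untreated replicates 1, 2 and 3. It fell 2.19-fold, from 29.6 ± 6.43 to 13.5 ± 1.13 CPM, or by 1.13 on the log2 scale (SE 0.18, edgeR adjusted p = 0.0011). Without untreated replicate 1, the highest library, the value was -0.96 (edgeR adjusted p = 0.000244; alternatives gave 1.98e-07 to 0.00808). On the opposite strand, exons of SAMD14 cover 38.6% of the exonic bases of PDK2, and no source used here gives the strand setting of the counting, so reads of the pair could not be told apart. SAMD14 itself went from 11.4 ± 4.08 to 5.92 ± 0.260 CPM, or -0.94 on the log2 scale (edgeR adjusted p = 0.0115).

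PDK4, the isoform induced by fasting and fatty acids in muscle and liver, was listed at 0 in all 6 libraries. Genes that dividing cells use, RPL15, RPS4X and SDHA, were also listed at 0 in this table. The 0 of PDK4, and those of NEUROD1 and PDHA2, were therefore not read as absence of the transcripts. Whether low counts of other genes have the same source was not tested.

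Ratios of raw counts within a library, which no scaling between libraries changes, were also computed for the kinases. PDK1 had 4.03, 3.11 and 3.05 counts per count of PDK2 in the Supinoxin libraries and 0.495, 0.794 and 1.24 in the untreated ones, so the ratio was 4.02-fold higher on average with Supinoxin. PDK3 had 14.8 to 17.3 counts per count of PDK2 with Supinoxin and 2.84 to 5.37 without. The ratio of PDK3 to PDK1 was 4.65 ± 0.314 and 4.82 ± 0.793, a difference smaller than its spread between replicates. All these ratios keep any trend of a library with gene length or GC content, and those to PDK2 any reads shared with SAMD14. An offset for length and GC content, described below, gave log2 fold changes of 0.58 for PDK1, 0.49 for PDK3 and -1.04 for PDK2. Without the offset they were 0.96, 0.94 and -1.13.

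The promoter stretches of the kinase genes that moved are shown because PDK1 and PDK3 rose while PDK2 fell, and because PDK1 is a known HIF-1 target. Each is the 250 bases before the gene start of the RefSeq table (GRCh38.p14) nearest the start of the canonical GENCODE transcript, on the plus strand, 5′ to 3′. Capitals mark ACGTG or GCGTG, the core letters of the hypoxia response element, searched on both strands, so that CACGT is ACGTG read on the other strand.
PDK1 chr2:172555840-172556089: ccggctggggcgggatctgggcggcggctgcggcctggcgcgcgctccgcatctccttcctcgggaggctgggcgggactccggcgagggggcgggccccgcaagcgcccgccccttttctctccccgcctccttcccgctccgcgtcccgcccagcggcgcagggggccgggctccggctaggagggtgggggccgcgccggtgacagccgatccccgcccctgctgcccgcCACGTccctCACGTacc
PDK3 chrX:24465036-24465285: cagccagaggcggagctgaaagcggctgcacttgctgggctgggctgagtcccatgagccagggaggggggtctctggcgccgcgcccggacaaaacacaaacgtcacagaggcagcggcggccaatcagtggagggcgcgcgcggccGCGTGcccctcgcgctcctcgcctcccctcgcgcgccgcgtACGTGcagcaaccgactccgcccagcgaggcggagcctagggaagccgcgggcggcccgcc
PDK2 chr17:50095101-50095350: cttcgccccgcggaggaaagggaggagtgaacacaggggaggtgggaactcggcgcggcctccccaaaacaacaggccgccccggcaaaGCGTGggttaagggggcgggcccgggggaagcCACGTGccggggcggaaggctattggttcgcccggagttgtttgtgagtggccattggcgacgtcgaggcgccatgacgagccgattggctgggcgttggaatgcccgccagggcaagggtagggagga
In the PDK1 stretch ACGTG occurred at 2 places, beginning 17 and 8 bases before the gene start on the minus strand. In PDK3 there was 1 ACGTG and 1 GCGTG. In PDK2 there was 1 GCGTG and the palindrome CACGTG, which holds ACGTG on both strands and is also the E-box sequence. The windows of 9 of the 10 genes were at hand, and 7 of them held ACGTG or GCGTG, genes that rose and genes that fell among them; PDK4 and MPC2 held neither. ACGTG was held by 18.5% of the 35116 windows of that length from RefSeq, GCGTG by 32.2% and either by 43.2%. Those shares count every window, with several for some genes, while each member entered with its nearest window only. A difference from the members was not tested. A match describes letters and is no evidence of a bound site.

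Shares of the kinase isoforms were computed from CPM per kilobase, since raw levels of different genes cannot be compared. PDK4 entered the kinase sum at 0, so the shares and sums describe PDK1, PDK2 and PDK3 only. Per kilobase of all annotated exon, PDK3 made up 68.4% to 68.8% of the kinase sum in Supinoxin libraries and 43.0%, 45.9% and 53.6% in untreated replicates 1, 2 and 3. PDK2 took 48.2%, 41.8% and 31.8% of the sum in untreated replicates 1, 2 and 3 and 12.6% to 14.7% with Supinoxin. PDK1 took 16.5% to 18.8% with Supinoxin and 8.80% to 14.6% without. Of the sum of PDK1, PDK2 and PDK3, PDK2 was thus a smaller part with Supinoxin than without. By exonic length the groups did not overlap for any of these 3 isoforms. By coding length the groups overlapped for PDK1, with 15.1% in the lowest Supinoxin and 15.4% in the highest untreated library.

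The size of these shares rests on the length used, because the annotated exons of PDK1 and PDK3 span 14845 and 17456 bases and those of PDK2 5471. Under each length the counts were those of the whole gene. Reads outside the coding sequence or canonical transcript were not taken out, so genes with much exon outside them can come out too high. Per kilobase of coding sequence the mean share of PDK2 was 18.5% ± 4.98 without and 5.06% ± 0.462 with Supinoxin, and per kilobase of the canonical transcript 12.1% ± 3.30 and 3.13% ± 0.264. In the group means PDK3 was first by all of these lengths. How reads in the exons of PDK2 that overlap SAMD14 were counted is not known, so the level of PDK2 in this order is uncertain. PDK2 came before PDK1 in the untreated mean by all 3 lengths, and after it with Supinoxin per kilobase of exon or coding sequence; per kilobase of canonical transcript PDK2 stayed ahead, at 4.01 ± 0.335 against 3.23 ± 0.265.

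**Figure D2:**
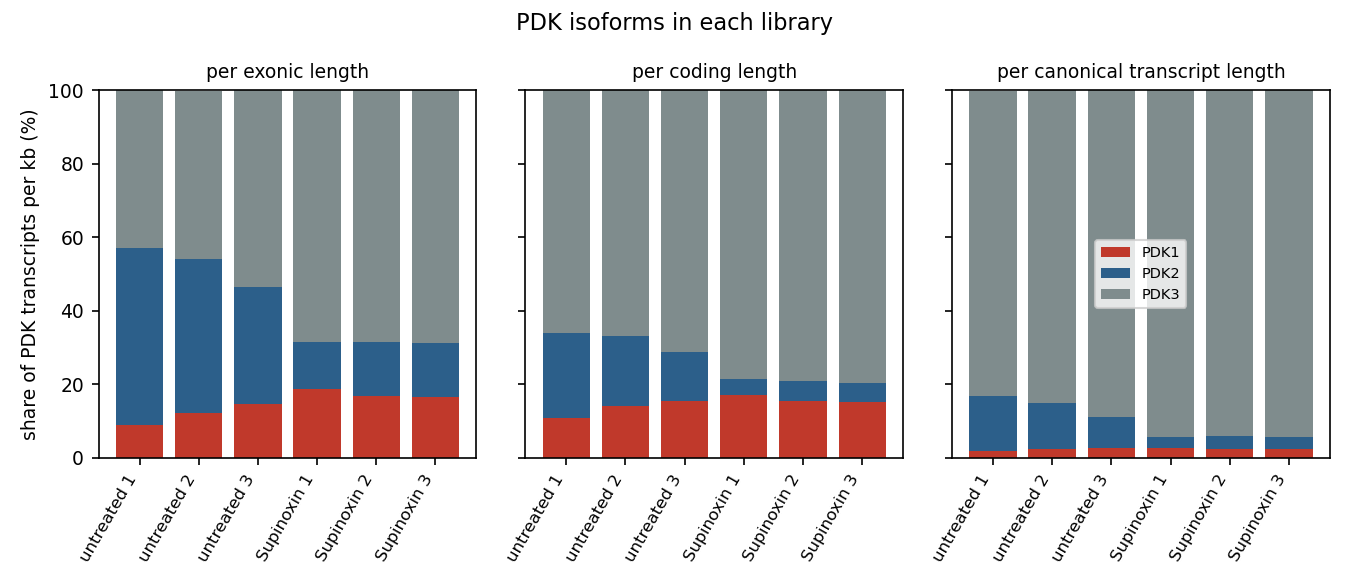
Share in percent of PDK1 (red), PDK2 (blue) and PDK3 (grey) in the sum of kinase transcripts per kilobase, 1 bar per library, with kilobases of exon, of coding sequence and of the canonical transcript in the panels from left to right; PDK4 is listed at 0. In each panel the blue part is smaller in every Supinoxin library than in any untreated one.

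PDP1 (ENSG00000164951, chromosome 8, 93857807 to 93926068) encodes the catalytic subunit of the calcium-sensitive phosphatase that reactivates the complex. It had 47.8, 45.3 and 41.3 CPM with Supinoxin and 33.8, 37.0 and 36.5 CPM without, and the groups did not overlap. Its log2 fold change was 0.32 (SE 0.12), with an edgeR adjusted p of 0.0494, at the edge of the threshold; 6 of 13 alternative analyses called it. Its relative PDP2, outside the 10 genes, rose 1.56-fold, reaching 15.1 ± 1.03 from 9.69 ± 1.14 CPM (edgeR adjusted p = 0.00655). PDPR, the regulatory subunit that restrains the phosphatase, was at 1.49 ± 0.482 and 4.82 ± 0.307 CPM, a 3.23-fold rise (edgeR adjusted p = 0.00079). PDPR has a near copy, PDPR2P, which also rose (log2 fold change 0.71, edgeR adjusted p = 0.0319; 8 of 13 alternatives called it), and reads can be split between them, so these values are uncertain.

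Summed over isoforms, with PDK4 at 0 in the kinase sum, kinase and phosphatase transcripts were both higher with Supinoxin. Per kilobase of exon the kinase sum was 17.6 ± 0.663 with Supinoxin and 13.3 ± 0.370 without, and the sum of PDP1 and PDP2 was 9.84 ± 0.525 and 7.56 ± 0.296. The ratio of kinase to phosphatase sums was 1.79 ± 0.130 and 1.76 ± 0.117, a difference smaller than the spread. By coding length the same ratio was 5.87 ± 0.356 with and 4.69 ± 0.409 without Supinoxin, and by canonical transcript it was 9.58 to 10.9 with and 6.80 to 8.14 without, so whether this ratio differed depended on the length used. These sums are descriptions, with no test, and under each length they used the counts of the whole gene.

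PDHA1 (ENSG00000131828, chromosome X, 19343893 to 19361718), the gene of the catalytic alpha subunit on which the kinases act, had 111, 120 and 114 CPM with Supinoxin and 159, 138 and 144 CPM without. Its groups did not overlap, and it fell 1.28-fold, from 147 ± 10.7 to 115 ± 4.46 CPM (log2 fold change -0.35, SE 0.12, edgeR adjusted p = 0.0372). The call was lost in 6 of 13 alternatives: without any single Supinoxin library, without a filter on low counts, with a replicate block and with library size alone. In the last the log2 fold change was -0.21 (edgeR adjusted p = 0.194; alternatives gave 0.00652 to 0.194). Exons of MAP3K15 on the other strand cover 19.3% of its exonic bases; MAP3K15 stood at 7.44 ± 0.786 CPM without and 6.10 ± 0.833 with Supinoxin.

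PDHB (ENSG00000168291, chromosome 3, 58427630 to 58433857), the beta subunit gene, had 38.0, 39.2 and 37.5 CPM with Supinoxin and 58.5, 56.6 and 62.4 CPM without. It fell 1.55-fold (log2 fold change -0.63, SE 0.11, edgeR adjusted p = 0.00214), and all 13 alternatives called it. Untreated replicate 1 lay at -0.02 (log2) from the mean of the other untreated libraries in this gene. Exons of a long noncoding RNA gene on the other strand, ENSG00000272182, cover 7.63% of the exonic bases of PDHB. The subunit pair did not move in step: PDHA1 had 2.92 to 3.05 counts per count of PDHB with Supinoxin and 2.31 to 2.71 without.

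DLAT (ENSG00000150768, chromosome 11, 112025408 to 112064404), the acetyltransferase core, had 56.6, 53.7 and 58.1 CPM with Supinoxin and 56.4, 79.6 and 64.4 CPM without. The groups overlapped through untreated replicate 1, the lowest untreated library. The log2 fold change was -0.25 (SE 0.15, edgeR adjusted p = 0.183) and ran from -0.45 to -0.10 over the alternatives. Without untreated replicate 1 it was -0.35 (edgeR adjusted p = 0.0167; alternatives gave 0.00945 to 0.6). Exons of PIH1D2 on the other strand cover 13.3% of those of DLAT, and PIH1D2 stood at 2.81 ± 0.520 CPM without and 2.26 ± 0.371 with Supinoxin.

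MPC1 (ENSG00000060762, chromosome 6, 166364919 to 166383013) had 21.9, 22.7 and 23.4 CPM with Supinoxin and 39.4, 29.0 and 31.4 CPM without. It fell 1.47-fold (log2 fold change -0.56, SE 0.14, edgeR adjusted p = 0.0115), and 10 of 13 alternatives called it; without Supinoxin replicate 1 or 2 the edgeR adjusted p was 0.0597 and 0.051; alternatives gave 0.00295 to 0.0597. MPC2 (ENSG00000143158, chromosome 1, 167916675 to 167937072), its obligate partner in the carrier, had 25.7, 26.6 and 26.0 CPM with Supinoxin and 65.1, 46.5 and 46.8 CPM without.

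MPC2 fell 2.02-fold, from 52.8 ± 10.7 to 26.1 ± 0.443 CPM (log2 fold change -1.02, SE 0.16, edgeR adjusted p = 0.00105). The groups did not overlap for either carrier gene. Untreated replicate 1 was the highest library for both, and without it the log2 fold changes were -0.41 for MPC1 and -0.83 for MPC2 (edgeR adjusted p = 0.00401 and 3.5e-05). Over the 13 alternatives the adjusted p of MPC2 ran from 2.32e-07 to 0.00785. MPC2 fell more than MPC1: MPC1 had 0.851 to 0.898 counts per count of MPC2 with Supinoxin and 0.605 to 0.672 without. Exons of DCAF6 on the other strand cover 21.8% of those of MPC2, and DCAF6 stood at 68.0 ± 12.9 CPM without and 61.1 ± 2.02 with Supinoxin.

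Per kilobase of exon, untreated cells held most PDHA1 (29.6 ± 2.16 CPM per kilobase), followed by MPC1 (21.6 ± 3.54), MPC2 (20.0 ± 4.05), PDHB (12.5 ± 0.620), DLAT (8.85 ± 1.56), PDP1 (6.38 ± 0.308), PDK3 (6.31 ± 0.707), PDK2 (5.40 ± 1.17) and PDK1 (1.57 ± 0.368). In that exonic order MPC1 and MPC2 did not differ beyond their spread, nor did PDP1, PDK3 and PDK2. By that length PDHA1 also led with Supinoxin, at 23.2 ± 0.910, followed by MPC1 at 14.7 ± 0.484, PDK3 at 12.1 ± 0.493, MPC2 at 9.89 ± 0.168 and PDHB at 8.10 ± 0.192. PDP1 at 7.99 ± 0.584 did not differ from PDHB beyond their spread, DLAT at 7.44 ± 0.296 lay below PDHB in every Supinoxin library, and PDK1 at 3.06 ± 0.251 and PDK2 at 2.47 ± 0.206 came last. The order rests on the length used, while the counts were always those of the whole gene. PDK3 has 1218 coding of 17456 exonic bases and PDHA1 1170 of 4953, so the shorter lengths can place PDK3 too high. Per kilobase of coding sequence MPC2 had the highest untreated mean at 139 ± 28.1, before PDHA1 at 125 ± 9.14, MPC1 at 102 ± 16.7 and PDK3 at 90.4 ± 10.1. MPC2 and PDHA1 did not differ beyond their spread, at 171, 122 and 123 against 136, 118 and 123 in untreated replicates 1, 2 and 3. Nor did MPC1 and PDK3. By coding length PDK3 led with Supinoxin at 173 ± 7.07, before PDHA1 at 98.1 ± 3.85. Per kilobase of canonical transcript PDK3 led in both groups, at 63.2 ± 7.09 before PDHA1 at 43.8 ± 3.19 without Supinoxin and at 121 ± 4.95 before PDHA1 at 34.3 ± 1.35 with it. Against its substrate gene, PDK3 had 1.68 to 1.92 counts per count of PDHA1 with Supinoxin and 0.646 to 0.862 without, and PDK1 had 0.353 to 0.446 and 0.113 to 0.200.

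**Figure D3:**
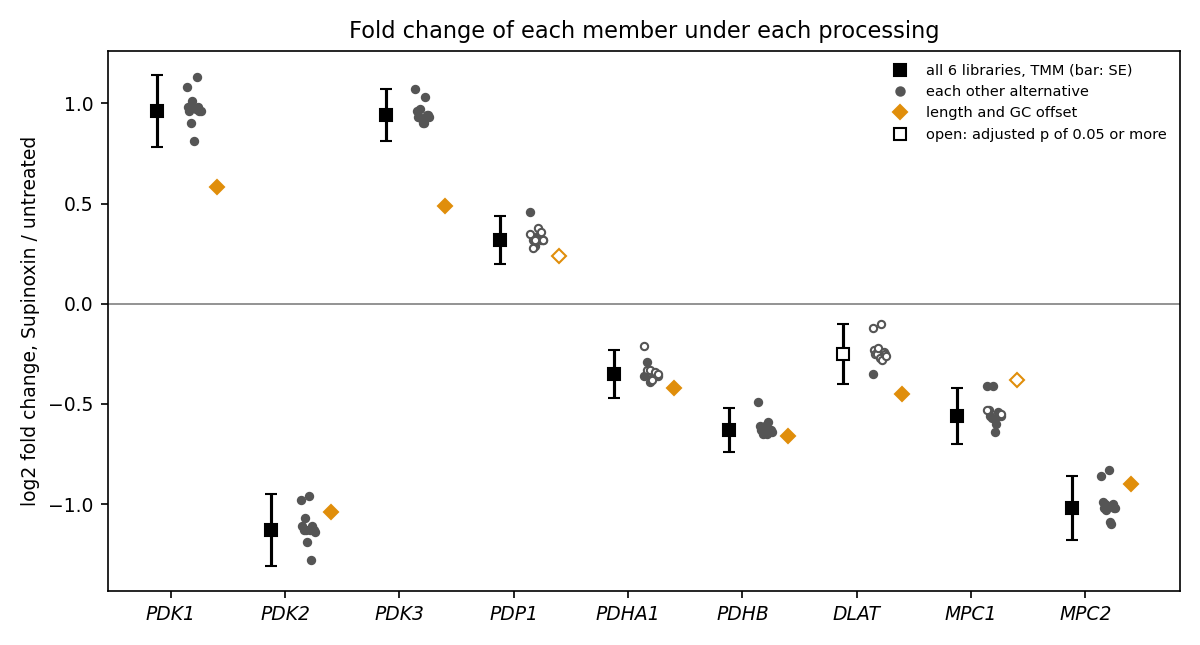
Log2 fold change of each tested gene, Supinoxin over untreated: black squares with SE bars are the fit of all 6 libraries with TMM scaling, grey circles the other alternatives, orange diamonds the offset for exonic length and GC content, and open symbols an adjusted p of 0.05 or more. Every point of PDK1, PDK2, PDK3, PDHB and MPC2 is filled, and no gene changes sign.

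Untreated replicate 1 stood apart in these genes as in the table as a whole. It was the untreated library farthest from the Supinoxin mean in 7 of the 9 tested genes, as in 56.8% of all genes tested, and PDHB and DLAT were the exceptions. Without it 3 members were higher and 6 lower. Calls over all genes also grew, to 4334 higher and 4477 lower from 3732 and 4018.

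Among the longest and the shortest of these genes exonic length went along with the fold changes, but not in between. PDK2, which fell most, has 5471 exonic bases, and PDP1, which rose a little, has 5604. PDK2 also has the highest GC content of the members, at 58.1%, before MPC2 at 46.4%. The offset given here takes length and GC content together, so the part of length alone was not tested. PDK1 and PDK3, which rose most, have the longest annotated exons of the tested members, and the carrier genes, which fell, the shortest (1540 bases for MPC1 and 2638 for MPC2). With an offset that removes each library's trend with exonic length and GC content, the log2 fold change was 0.58 for PDK1 (edgeR adjusted p = 0.000456) and 0.49 for PDK3 (edgeR adjusted p = 0.00328; alternatives gave 1.98e-10 to 0.00607). It was -1.04 for PDK2 and -0.90 for MPC2 (edgeR adjusted p = 4.54e-05 and 0.00072). MPC1, at -0.38, and PDP1, at 0.24, were then no longer called (edgeR adjusted p = 0.0566 and 0.0564; over the alternatives that of PDP1 ran from 0.0226 to 0.21), while DLAT was, at -0.45 (edgeR adjusted p = 0.00945). Such an offset also removes any treatment effect that runs with length.

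**Figure D4:**
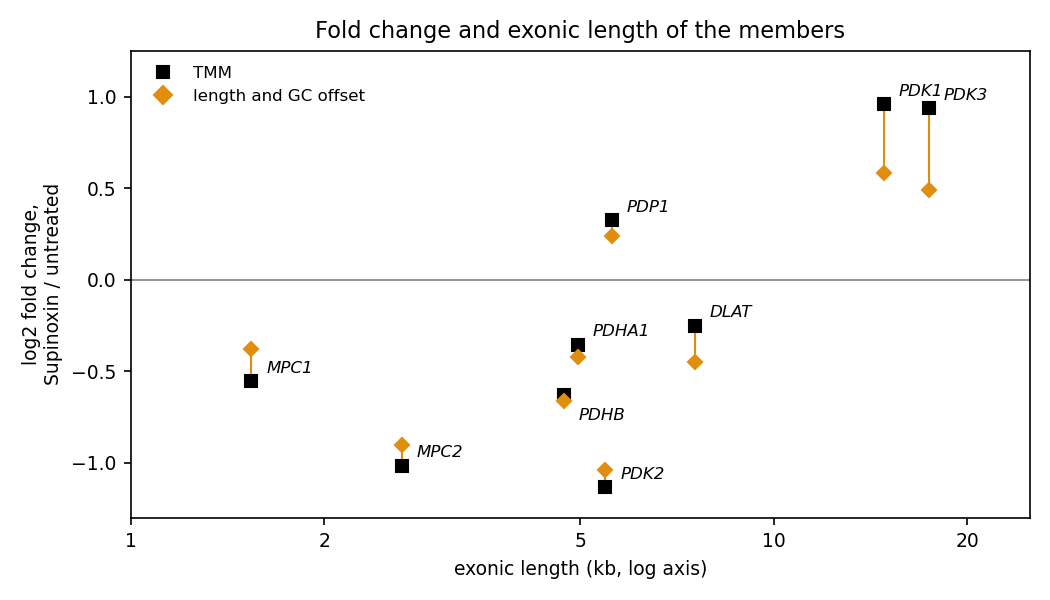
Log2 fold change of the 9 tested genes against exonic length in kilobases (log axis), as black squares with TMM scaling and orange diamonds with the length and GC offset, joined for each gene. The offset brings PDK1 and PDK3 down to 0.58 and 0.49 and leaves PDK2 and MPC2 at -1.04 and -0.90.

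The remaining genes of the complex, its regulation and its cofactors form a list of 19 partner genes. Of these 16 were tested, of which 2 rose and 7 fell, with a median log2 fold change of -0.31. With 9 of 16 called, beside 48.6% of all genes tested, their count is near the background. The rises were PDP2 and PDPR. PDHX, which anchors the last enzyme to the core, stood at 47.8 ± 2.06 with and 45.8 ± 5.19 CPM without Supinoxin (edgeR adjusted p = 0.714), and DLD, that last enzyme, at 105 ± 2.01 and 124 ± 13.0 CPM (edgeR adjusted p = 0.156). Without untreated replicate 1 and with the length and GC offset DLD was called lower, at -0.30 and -0.28 on the log2 scale. Of the genes that build the lipoyl arm, LIAS, the lipoyl synthase, did not pass, at 10.3 ± 0.463 and 11.9 ± 2.14 CPM, but was called lower with the length and GC offset, at -0.54 on the log2 scale. NFU1, which delivers iron-sulfur clusters to it, went from 43.0 ± 5.56 to 22.7 ± 0.966 CPM, a 1.90-fold fall (edgeR adjusted p = 0.000869), and BOLA3, its helper, fell by 0.81 on the log2 scale (edgeR adjusted p = 0.002). PDHA2, a testis form of the alpha subunit, was listed at 0, and MPC1L, a testis form of MPC1, had 4 counts in all.

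The sister 2-oxoacid dehydrogenase complexes, which share lipoyl chemistry with pyruvate dehydrogenase, held 8 tested genes of 9, of which 0 rose and 3 fell (median -0.29), beside 23.4% higher and 25.2% lower over all genes tested, so 3 of 8 called is no more than the background share of 48.6%. OGDH, the first enzyme of the 2-oxoglutarate complex, was at 102 ± 3.29 CPM with and 174 ± 36.6 CPM without Supinoxin, 1.72-fold lower (edgeR adjusted p = 0.00419). Its relative OGDHL was at 3.74 ± 0.346 and 14.0 ± 1.91 CPM, 3.76-fold lower (edgeR adjusted p = 9.09e-05). BCKDHB, a subunit of the branched-chain complex, fell 1.48-fold (edgeR adjusted p = 0.00673), a call lost with library size alone (edgeR adjusted p = 0.0509, the highest over the alternatives). BCKDK, the kinase of that complex and a relative of the PDK family, stood at 84.1 ± 3.24 with and 117 ± 40.8 CPM without Supinoxin and did not pass (log2 fold change -0.47, edgeR adjusted p = 0.0979). It had 163, 99.3 and 87.4 CPM in untreated replicates 1, 2 and 3. Without untreated replicate 1 the log2 fold change was -0.14, and without untreated replicate 3 it was called at -0.65 (edgeR adjusted p = 0.0302; alternatives gave 0.0302 to 0.219).

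Of 17 genes for enzymes that make pyruvate or use it by other routes 9 were tested. Of these 1 was higher and 1 lower, with a median of 0.00, beside 48.6% of all genes called in either direction. LDHA, which reduces pyruvate to lactate, was at 1736 ± 57.1 with and 1796 ± 117 CPM without Supinoxin (log2 fold change -0.05, SE 0.12, edgeR adjusted p = 0.752), and LDHB had 5 counts in all. PKM, the pyruvate kinase, fell 1.48-fold (edgeR adjusted p = 0.0152), and GPT2, the mitochondrial alanine transaminase, rose 1.37-fold (edgeR adjusted p = 0.0104). The call on PKM was lost without any single Supinoxin library (edgeR adjusted p = 0.0715, 0.0542 and 0.0563 without replicates 1, 2 and 3; alternatives gave 0.000772 to 0.0715). That on GPT2 was lost without Supinoxin replicate 1 or 2 (edgeR adjusted p = 0.0591 and 0.0587; alternatives gave 0.000692 to 0.0591). Pyruvate carboxylase PC and malic enzyme ME2 did not pass, at 0.18 and 0.29 (edgeR adjusted p = 0.448 and 0.122).

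Transcription factors and coactivators with a known link to PDK genes rose in 6 of 16 tested and fell in 2, with a median of 0.26. That makes 8 of 16 called, about the 48.6% called over all genes tested. FOXO3, a forkhead factor active in starvation, rose 1.85-fold, reaching 78.9 ± 3.86 from 42.6 ± 5.06 CPM (edgeR adjusted p = 0.000908). PPARGC1A, the coactivator PGC-1 alpha, known for driving mitochondrial genes, had 4 counts over the Supinoxin and 154 over the untreated libraries, 43.5-fold lower with a 95% exact binomial interval of 16.6 to 162 for counting error alone (edgeR adjusted p = 0.000235). E2F1 fell 2.63-fold (edgeR adjusted p = 0.000809). HIF1A counts were low, at 5.15, 4.16 and 3.81 CPM with and 2.22, 1.92 and 4.20 CPM without Supinoxin. HIF1A did not pass (log2 fold change 0.66, SE 0.29, edgeR adjusted p = 0.0905). Without untreated replicate 3 its log2 fold change was 1.08 (edgeR adjusted p = 0.00493). Over the alternatives its adjusted p ran from 0.00493 to 0.255, and 4 of 13 alternatives called it. ESRRA, the nuclear receptor that works with PGC-1 alpha, was at 66.8 ± 0.557 and 82.0 ± 19.6 CPM and did not pass; its log2 fold change of -0.30 was -0.45 and called without untreated replicate 3, -0.09 without untreated replicate 1 and 0.15 with the length and GC offset. With Supinoxin replicate 1 left out the count of rises in this list was 2, and with Supinoxin replicate 2 left out it was 3. Over all genes tested the rises were then 2556 and 2629, beside 3732 with all libraries.

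**Figure D5:**
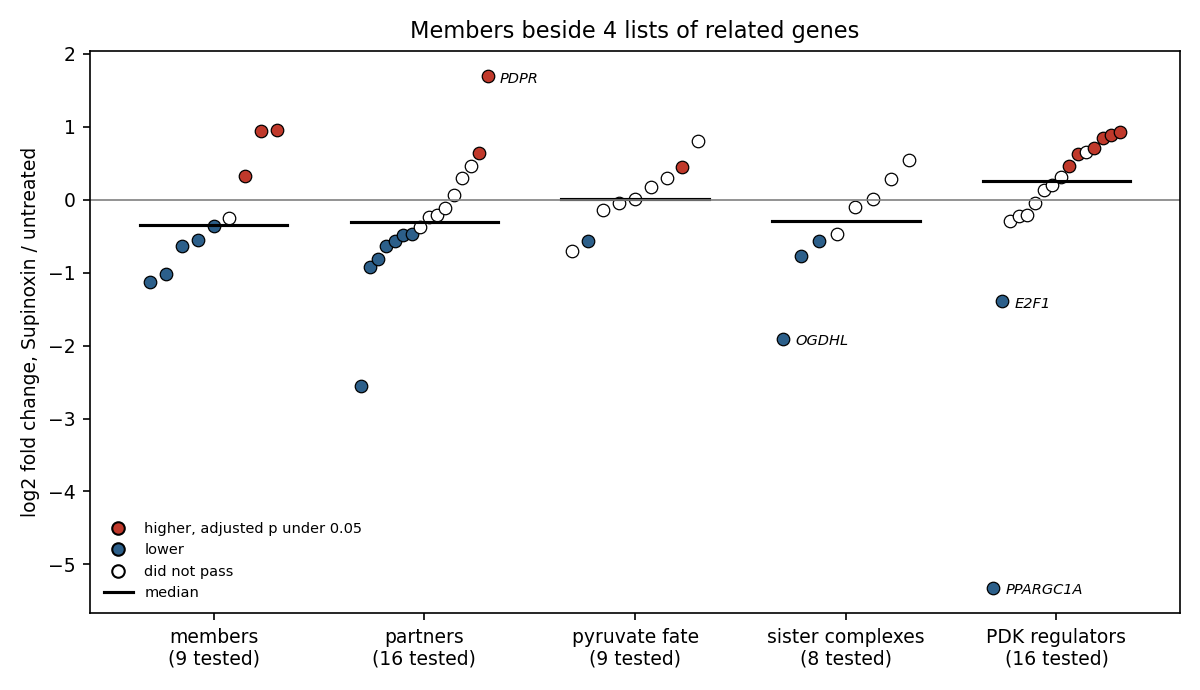
Log2 fold change of every tested gene in the members and in 4 lists of related genes, with red for higher, blue for lower and open circles for genes that did not pass an adjusted p of 0.05; black lines are list medians of -0.35, -0.31, 0.00, -0.29 and 0.26 from left to right. The members hold rises of PDK1 and PDK3 and falls of PDK2 and MPC2 side by side.

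The genes most alike in pattern over the 6 libraries were found by Euclidean distance between log2 CPM centred on each gene's mean, among 8942 named genes whose mean reached 10 CPM. For PDK1 these were APOOL, ERBIN and STXBP5, at distances of 0.0573, 0.0847 and 0.0956. For PDHA1 they were MMACHC, TLCD5 and CTPS1, at 0.0400, 0.0515 and 0.0694, and for MPC1 GTF2F1, HMGN2 and TRMT2B, at 0.0594, 0.0630 and 0.0818.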

How the data were processed

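The authors deposited 1 table of raw counts per Ensembl gene, with no normalization. The build was GRCh38 and the tools were STAR and featureCounts beside fastp, Trim Galore 0.4.4, edgeR and DESeq2, per the submitters' processing notes, which give no roles or order. No source used here gives the annotation release or strand setting. Columns naming WT were taken as the untreated libraries because the others name Supinoxin. Of 60605 identifiers 60463 were matched to GENCODE 44 for symbol, GRCh38 position, exonic length and GC content.

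The counts were fitted with edgeR 4.0.16 (R 4.3.3): filterByExpr (15947 genes), TMM, then the robust quasi-likelihood test, two-sided, treatment being the only term, with Benjamini-Hochberg adjustment over all genes tested. SE of log2 fold changes were derived from the F statistic. The procedure was tested on simulated data. Intervals cover counting error only. Alternatives were library size alone, DESeq2 1.42.0, 2 other filters, each library left out, a replicate block, a length and GC offset and glmQLFit without robust. The members, lists, tests and offset were chosen with earlier results of these data known. Named genes were the members, 14 genes chosen by name, the 3 of smallest p per list and the nearest patterns of PDK1, PDHA1 and MPC1; some of these are not reported here.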

Additional observations from a re-analysis of the deposited data

How the results depend on the processing

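Over 13 alternatives no tested member changed sign, and PDK1, PDK2, PDK3, PDHB and MPC2 were called in all of them; 99 of 117 member values kept their call, 16 lost it and 2 gained it. Leaving out 1 library in turn gave 2 to 3 members higher and 3 to 6 lower, 2 to 4 partner genes higher and 4 to 8 lower, 0 to 1 pyruvate fate genes higher and 0 to 1 lower, 0 to 1 sister complex genes higher and 3 to 4 lower, and 2 to 7 PDK regulators higher and 2 to 3 lower. Over all genes tested the same settings gave 2556 to 4334 higher and 2789 to 4477 lower. The members' lowest count, 3 lower, came without Supinoxin replicate 1 or 2, where 2789 and 2941 of all genes were lower. The lowest counts of partner genes lower and of PDK regulators higher came without Supinoxin replicate 3 and 1, where 2924 of all genes were lower and 2556 higher. With library size alone 4 partner genes were higher, beside 4307 of all genes. With the length and GC offset 2 pyruvate fate genes were higher, beside 4252 of all genes. The PDK2 share of the kinase sum was lower with Supinoxin by -26.61 percentage points per exonic length, -31.00 to -22.82 without 1 library, -13.44 per coding length and -8.96 per canonical transcript length; the 2 latter were chosen after seeing the data. A coding length from a protein table was not run. The sign of the log2 fold change turned for 5 genes, none of them called under that setting, and the cause was not tested. Leaving out 1 library gave -0.02 to 0.13 for PDHX, -0.07 to 0.00 for LDHA and -0.00 to 0.34 for PC, with the turn when untreated replicate 1 was left out for PDHX and untreated replicate 3 for LDHA and PC. LDHA was at 0.08 on library size alone, and with the offset ESRRA was at 0.15 and ME2 at -0.13. Same-numbered libraries deviated with correlations of -0.133, -0.043 and -0.029, so numbers were not taken as pairs. With the replicate block 2 members were higher and 4 lower, beside 3588 and 3650 of all genes. PDP1 and PDHA1 were then not called (edgeR adjusted p = 0.138 and 0.117). Depth limits HIF1A and PPARGC1A, with 763 and 158 counts in all.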
